A study of Mus musculus with 24 samples.

Results

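The 9 transcripts described here are the mu heavy chain constant gene Ighm, the other antibody constant genes Ighd, Igha, Ighg1, Ighg2b, Igkc, Iglc1 and Iglc2, and Jchain. They were taken by symbol from a table of 48526 genes. All 9 were listed, and all 9 were among the 14560 genes that passed a filter on low counts. The choice was made with their levels in these libraries known, so their own levels, ratios and fitted differences are given as description, with no p-value.

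The libraries hold poly-A RNA of T cells from OT-1 animals, which are mice with a transgenic T cell receptor that recognises an ovalbumin peptide. Per the labels' protocols, whole spleen cells were cultured with peptide at 2 µg/mL, agonists of Toll-like receptors (TLR) went in 1 h earlier, and T cells were then taken by magnetic negative selection. Spleen cells include B cells. There were 6 groups of 4 libraries: cells labelled with the agent OVA, TLR2 or TLR7, each at 24 h and at 72 h. The TLR labels name the receptor; the protocol lists Pam3CSK4 at 300 ng/mL, gardiquimod at 3 µg/mL and R848 at 10 µg/mL, and does not say which of the TLR7 agonists was used. All groups share strain, peptide culture and selection. The labels do not say whether the 4 replicates came from separate mice, so spreads and tests cover these libraries and may be technical.

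An antibody is built of paired heavy and light chains, each with a variable part and a constant part. Ighm encodes the constant part of the IgM heavy chain and Ighd that of IgD, both of which naive B cells carry. Igkc encodes the kappa light chain constant part, Iglc1 and Iglc2 those of lambda light chains. Igha, Ighg1 and Ighg2b encode the constant parts of IgA, IgG1 and IgG2b, which a B cell makes after class switching. Jchain is the joining chain of secreted IgM and IgA polymers and is high in antibody-secreting cells. In a B cell the variable (V) segment is rearranged next to a joining segment and spliced to the constant exons, and a heavy chain is of use with a light chain only.

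The start of each constant region is shown for Ighm and Igkc, which the results set against each other, and for 3 lambda genes, whose likeness bears on how far their counts can be told apart. The sequences are from GENCODE M21 transcripts on GRCm38, printed 5′ to 3′ on the transcript strand, and the capitals in the lambda genes mark the 13 positions at which the 3 differ.
Ighm, chr12:113422671-113422730, minus strand: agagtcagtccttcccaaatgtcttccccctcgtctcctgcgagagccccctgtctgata
Igkc, chr6:70726435-70726494, plus strand: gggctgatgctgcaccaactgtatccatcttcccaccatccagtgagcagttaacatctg
Iglc1, chr16:19062012-19062071, minus strand: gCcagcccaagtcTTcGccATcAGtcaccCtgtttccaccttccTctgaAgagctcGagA
Iglc2, chr16:19198793-19198852, minus strand: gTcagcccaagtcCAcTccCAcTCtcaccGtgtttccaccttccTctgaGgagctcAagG
Iglc3, chr16:19065622-19065681, minus strand: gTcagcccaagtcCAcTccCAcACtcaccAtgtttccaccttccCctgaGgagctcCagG
Over the aligned transcripts Iglc2 and Iglc3 were 95.4% identical, with a shared stretch of 79 bases, so reads may have been split between them. Iglc1 was 69.2% identical to Iglc2. Ighm (chr12:113418558-113422730) and Ighd (chr12:113406604-113416324) are neighbours on the minus strand of chromosome 12, where the alpha and gamma genes also lie. In the annotation Igkc overlaps Gm30211 and Iglc2 overlaps Iglj2 on the same strand, and Iglc1 overlaps 2010309G21Rik on the other strand. No source used here gives the strand setting of the counting, so whether reads of the opposite-strand pair were kept apart is not known. Reads in the same-strand overlaps cannot be told apart by strand.

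Library totals ran from 10.5M to 27.1M counts, and 5 libraries held under 15M: OVA 24 h replicate 4, TLR2 24 h replicate 4, TLR7 24 h replicate 2 and TLR7 72 h replicates 1 and 2. Levels below are counts-per-million values (CPM) after edgeR's TMM scaling, and 3 counts correspond to 0.111 to 0.286 CPM, which covers counting error only. On the first principal component of all genes, which took 60.2% of the variance, 8 libraries lay between the other 24 h and the other 72 h libraries. Of these middle libraries 4 were from 24 h, replicates 1 and 3 of OVA and replicates 3 and 4 of TLR7. The other 4 were from 72 h, replicate 4 of OVA and replicates 1, 3 and 4 of TLR2. The T cell label held: Cd8a, the CD8 co-receptor, stood at 457 to 904 CPM and Cd3e, a subunit of the T cell receptor complex, at 107 to 321 CPM over all 24 libraries.

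Ighm was abundant in every library. It varied 5.43-fold, from 127 to 689 CPM, over the 24 libraries, whereas Igkc varied 747-fold, from 0.38 to 284 CPM. In replicate order Ighm stood at 463, 638, 301 and 527 CPM with OVA at 24 h and at 371, 583, 689 and 519 CPM with OVA at 72 h. With the TLR2 agent it stood at 535, 461, 497 and 477 CPM at 24 h and at 455, 274, 405 and 338 CPM at 72 h. With the TLR7 agent it stood at 390, 324, 538 and 333 CPM at 24 h and at 127, 141, 267 and 202 CPM at 72 h. The TLR7 72 h libraries were thus all below the lowest library of every other group, and all other groups overlapped one another except TLR2 24 h, which lay wholly above TLR2 72 h. Ordered by mean, the groups ran from OVA 72 h at 541 ± 133 CPM (SD, n = 4) through TLR2 24 h at 492 ± 32.2, OVA 24 h at 482 ± 141, TLR7 24 h at 396 ± 99 and TLR2 72 h at 368 ± 78.8 to TLR7 72 h at 184 ± 63.9. The only neighbours in that order whose libraries did not overlap were TLR2 72 h and TLR7 72 h.

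Igkc, the kappa constant gene, showed another pattern. With OVA it stood at 89.2, 284, 78.3 and 174 CPM at 24 h and at 6.48, 0.38, 107 and 44.2 CPM at 72 h. With the TLR2 agent it stood at 173, 176, 161 and 166 CPM at 24 h and at 87.1, 1.68, 89.9 and 79.8 CPM at 72 h. With the TLR7 agent it stood at 158, 122, 46.4 and 75.7 CPM at 24 h and at 12.3, 6.61, 4.53 and 6.41 CPM at 72 h. All 24 h libraries thus held at least 46.4 CPM, while at 72 h 7 of 12 libraries were under 15 CPM: OVA replicates 1 and 2, TLR2 replicate 2 and all of TLR7. The middle libraries moved with this. At 72 h all 4 of them kept Igkc above 40 CPM, joined by OVA replicate 3 alone, and at 24 h they were the lowest of the OVA and of the TLR7 group. Their part in the levels was not tested.

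**Figure D1:**
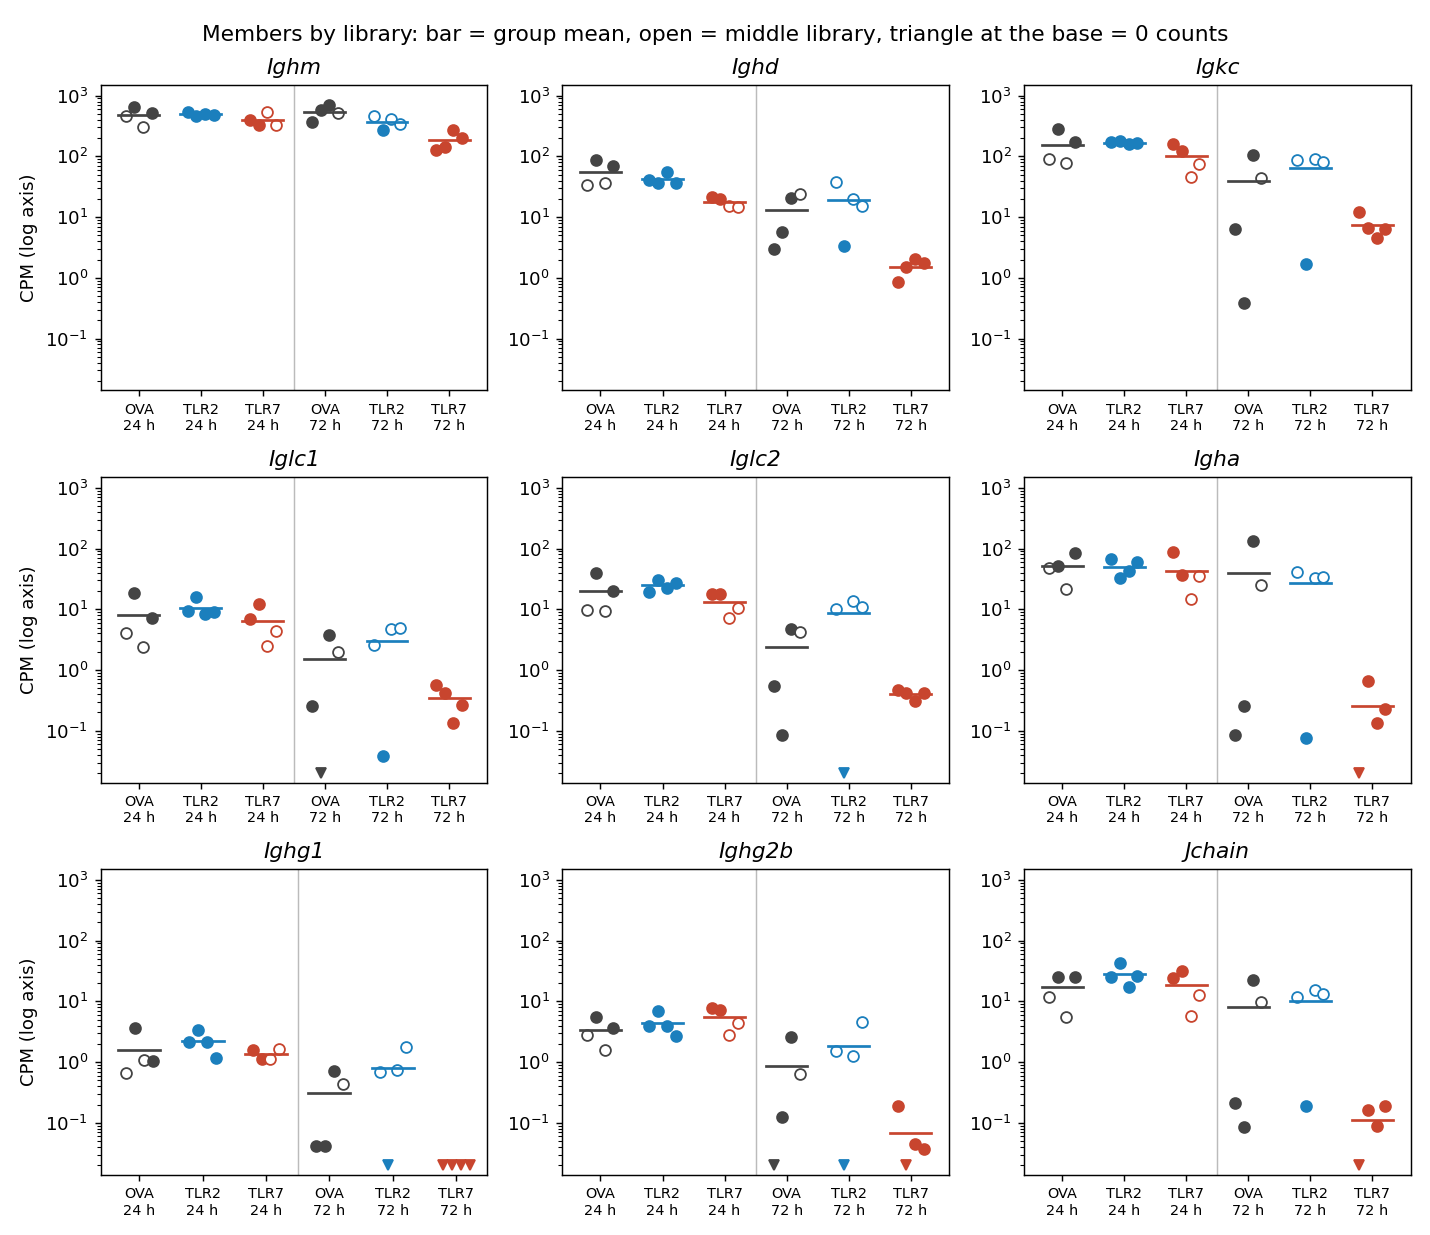
Each panel plots one transcript in CPM on a log axis, with a point for every library, the 6 groups along the x axis, a bar at the group mean, open symbols for the middle libraries and triangles at the base for libraries with 0 counts. Ighm stays between 127 and 689 CPM in all 24 libraries, while the other 8 transcripts drop in the same 7 libraries at 72 h.

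The lambda genes followed kappa. Iglc2 ranged from 9.41 to 40 CPM with OVA, from 19.6 to 30.4 with TLR2 and from 7.09 to 17.8 with TLR7 at 24 h. At 72 h it stood at 0.547, 0.0845, 4.69 and 4.3 CPM with OVA, at 10.1, 0, 13.9 and 10.7 CPM with TLR2 and at 0.475, 0.413, 0.314 and 0.417 CPM with TLR7. The low Iglc2 libraries were the 7 that were low in Igkc. Iglc1 stood at 2.39 to 18.5 CPM over the 12 libraries of 24 h and at 0.135 to 0.57 CPM with TLR7 at 72 h. In OVA 72 h replicate 2 it had 0 counts, and in TLR2 72 h replicate 2 it had 1.

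Ighd, which a B cell makes from the same precursor RNA as Ighm, did not keep the Ighm pattern. It stood at 33.3, 85.9, 35.8 and 69.2 CPM with OVA at 24 h and at 3.03, 5.62, 20.4 and 23.7 CPM with OVA at 72 h, with no overlap. With TLR7 it stood at 21.1, 19.9, 15.3 and 14.7 CPM at 24 h and at 0.854, 1.49, 2.02 and 1.78 CPM at 72 h. The TLR7 libraries at 24 h lay below all OVA and TLR2 libraries of that time, the TLR2 ones ranging from 36.2 to 54.7 CPM. TLR2 at 72 h held 38.2, 3.33, 19.5 and 15.3 CPM, with replicate 2 alone under 15. In the 7 libraries low in Igkc, Ighd still stood at 0.854 to 5.62 CPM, or 9 to 133 counts, against 14.7 to 85.9 CPM in the other 17.

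The switched heavy chains and Jchain were nearly on or off by library. Igha stood at 48.5, 51.8, 21.8 and 84.4 CPM with OVA at 24 h and at 0.0842, 0.253, 133 and 25.1 CPM with OVA at 72 h, so that group held both the highest value of the series and values near 0. With TLR2 at 72 h Igha was 40.7, 0.0765, 32.2 and 33.5 CPM, and with TLR7 at 72 h it was 0, 0.661, 0.135 and 0.227 CPM. Jchain did the same. It stood at 0.21, 0.0845, 22.6 and 9.8 CPM with OVA at 72 h, at 12, 0.191, 15.7 and 13.3 CPM with TLR2 at 72 h and at 0, 0.165, 0.0897 and 0.19 CPM with TLR7 at 72 h. At 24 h its lowest library had 5.49 CPM and its highest 43.2 CPM.

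Ighg1 and Ighg2b were rare even at 24 h, with group means of 1.37 to 2.2 CPM and 3.39 to 5.54 CPM. At 72 h Ighg1 had 0 counts in all 4 TLR7 libraries, which against a floor of 3 counts over the group put it at least 33.6-fold lower than TLR7 24 h, at least 19.3-fold lower than TLR2 72 h and at least 7.29-fold lower than OVA 72 h. Ighg2b had 0 to 2 counts in those libraries. In replicates 3 and 4 of OVA and replicates 1, 3 and 4 of TLR2 at 72 h they stood at 0.438 to 1.75 CPM for Ighg1 and 0.638 to 4.57 CPM for Ighg2b.

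Ighm therefore parted from the light chains and Jchain in 7 of the libraries at 72 h. In the 7 libraries under 15 CPM for Igkc, a set picked by that level and given as description only, Ighm stood at 127 to 583 CPM, Igkc at 0.38 to 12.3 CPM, Jchain at 0 to 0.21 CPM and Igkc, Iglc1, Iglc2 and Iglc3 together at 0.465 to 13.6 CPM. In the other 17 libraries Ighm stood at 301 to 689 CPM and the light chains together at 53.4 to 369 CPM. OVA 72 h replicate 2 was the extreme, with 13811 counts of Ighm beside 9 of Igkc, 2 of Jchain, 2 of Iglc2 and 0 of Iglc1. Per kilobase of exon, the scale on which genes can be compared, the medians of Ighm and Igkc were 262 and 248 CPM per kb with OVA at 24 h, and 91 and 12.2 CPM per kb with TLR7 at 72 h.

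**Figure D2:**
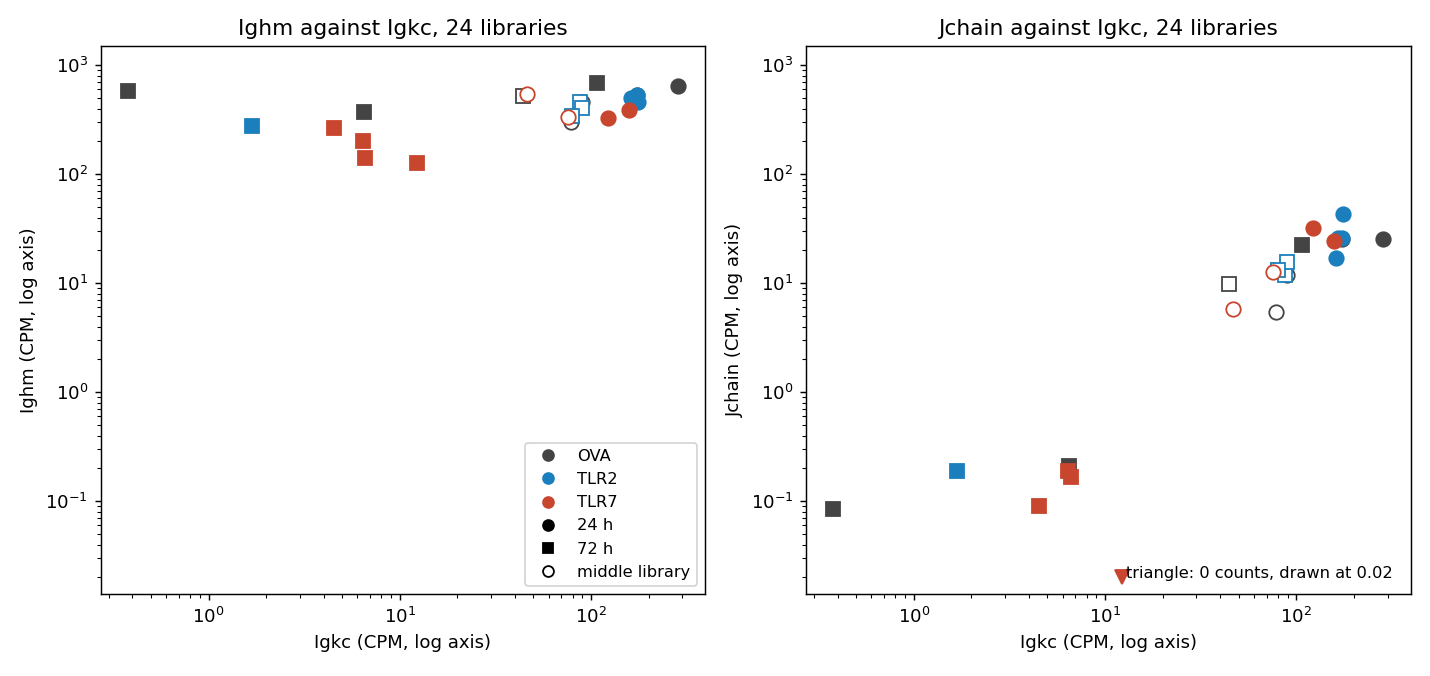
The left plot sets Ighm against Igkc and the right plot Jchain against Igkc, all in CPM on log axes, with 1 point per library, colour for the agent, circles for 24 h, squares for 72 h, open symbols for the middle libraries and a triangle for the library with 0 counts of Jchain. Ighm stays at 583 CPM where Igkc is 0.38 CPM, while Jchain is at or below 0.21 CPM in all 7 libraries under 15 CPM of Igkc.

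The ratio of Ighm to Igkc counts within a library, which depth and scaling do not touch, put numbers on this. At 24 h it ran from 2.25 to 11.6, and over the 8 libraries of that time outside the middle set from 2.25 to 3.1. Over the 8 middle libraries of both times it ran from 3.84 to 11.8. At 72 h it was 57.2, 1535, 6.42 and 11.8 with OVA, 5.23, 163, 4.51 and 4.24 with TLR2, and 10.3, 21.4, 58.9 and 31.5 with TLR7. Every 72 h library of OVA and of TLR2 was thus above all libraries of the same agent at 24 h, whereas TLR7 24 h replicate 3, a middle library at 11.6, lay above TLR7 72 h replicate 1. On the log2 scale the ratio was higher at 72 h by 3.90 (SE 1.79) with OVA, 1.96 (SE 1.29) with TLR2 and 2.56 (SE 0.74) with TLR7. Single libraries moved the first and second of these, to 2.26 without OVA 72 h replicate 2 and to 0.67 without TLR2 72 h replicate 2. Set against the summed level of a list of 22 B cell genes in place of Igkc, the log2 ratio differed over time by 1.63 with OVA, 0.61 with TLR2 and -0.44 with TLR7, where the sign turned. In the 7 libraries under 15 CPM for Igkc, all TLR7 72 h libraries among them, that sum still stood at 68.3 to 82.1 CPM. Of its genes, Tnfrsf13b stood there at 19.8 to 31 CPM and Ms4a1 at 0 to 0.168 CPM. Between agents at one time the differences in the log2 ratio of Ighm to Igkc lay from -2.17 (SE 2.19) to 1.16 (SE 1.39), and the libraries overlapped in each of the 6 comparisons. With the 4 middle libraries of 72 h left out, TLR2 at 72 h is a single library, at 163.

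V segments tell whether constant-gene reads were accompanied by reads of rearranged or germline V genes. The 185 heavy V symbols were summed in each library, as were the 160 kappa V and 3 lambda V symbols. The 20 heavy D, 4 heavy J and 5 kappa J symbols stood at 0 in every library. That included OVA 24 h replicate 2, where Igkc stood at 284 CPM and summed kappa V at 171 CPM. Nothing is read from these zeros. Summed heavy V reads were 0.0335 to 0.191 of Ighm reads at 24 h. At 72 h the ratio was 0.0059, 0.00029, 0.0574 and 0.0344 with OVA, 0.0638, 0.00139, 0.0788 and 0.0873 with TLR2 and 0.0592, 0.0257, 0.00908 and 0.013 with TLR7. In OVA 72 h replicate 2 there were 4 heavy V counts beside the 13811 of Ighm, and in TLR2 72 h replicate 2 there were 10 beside 7172.

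Heavy V reads kept pace with kappa V reads instead. Their ratio was 0.333 to 0.94 over all 24 libraries, and kappa V reads were 0.515 to 1.33 of Igkc reads, the extreme of 1.33 resting on 12 and 9 counts. The 4 TLR7 72 h libraries had the highest heavy to kappa V ratios, 0.759 to 0.94, on 44 to 79 heavy V counts each, and did not overlap the other groups.

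**Figure D3:**
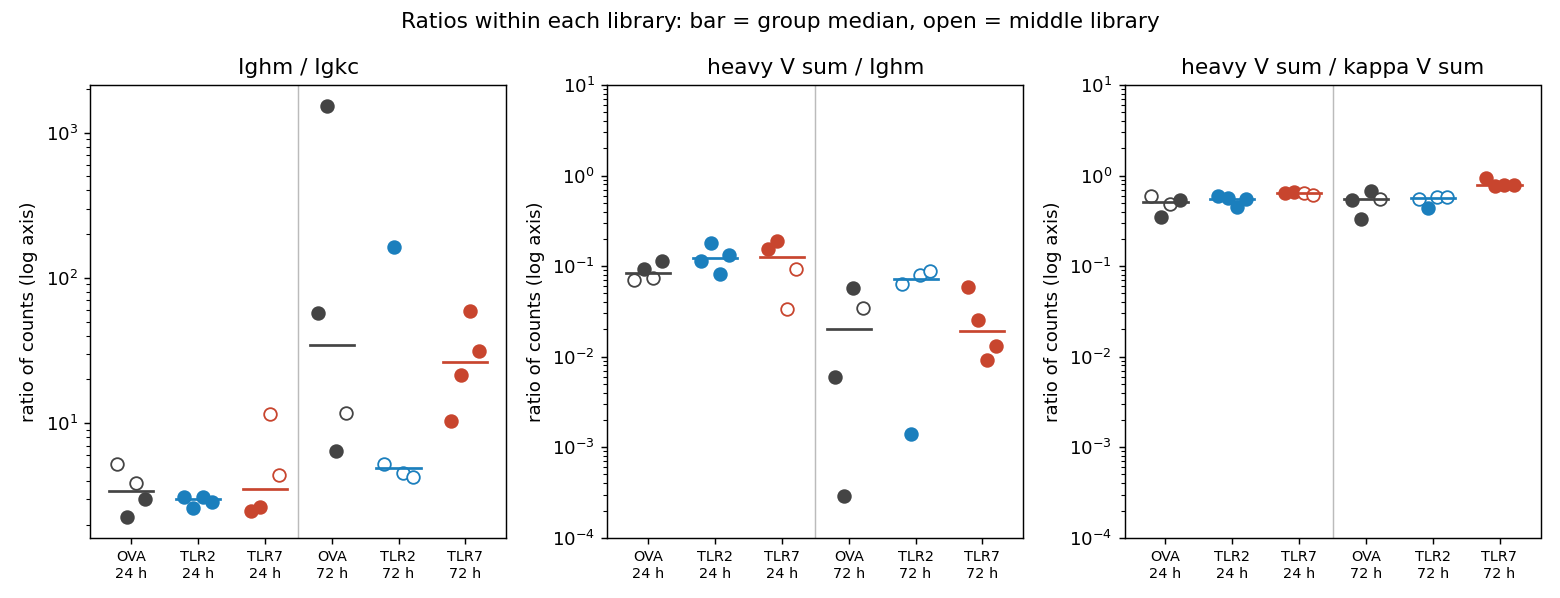
From left to right the plots show, on log axes, the ratio of Ighm to Igkc counts, of summed heavy V to Ighm counts and of summed heavy V to summed kappa V counts, with 1 point per library, a bar at the group median and open symbols for the middle libraries. The first spans 2.25 to 1535 and the second 0.00029 to 0.191, while the third stays between 0.333 and 0.94.

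Fitted differences came from edgeR's quasi-likelihood test over all 14560 genes and 6 groups, with Benjamini-Hochberg adjustment at 0.05. For Ighm they were small at 24 h: a log2 difference of 0.03 (SE 0.25) for TLR2 against OVA, -0.28 (SE 0.25) for TLR7 against OVA and -0.31 (SE 0.25) for TLR7 against TLR2. At 72 h they were -0.55 (SE 0.25), -1.55 (SE 0.25) and -1.0 (SE 0.25) for the same contrasts. Over time Ighm differed by 0.17 (SE 0.25) with OVA, -0.42 (SE 0.25) with TLR2 and -1.10 (SE 0.25) with TLR7. Igkc differed over time by -1.98 (SE 0.95), -1.39 (SE 0.93) and -3.77 (SE 1.04), and Jchain by -1.05 (SE 1.0), -1.45 (SE 1.0) and -7.17 (SE 1.5). Contrasts that share a group share its libraries.

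The count of members past the threshold is given beside the share of all genes past it, and nothing is read from either, because the members were chosen with these contrasts known. For TLR2 against OVA 0 of 9 passed at 24 h and 0 of 9 at 72 h, where 0% of all genes did. At an unadjusted p under 0.05 there were 0 and 2 members, and DESeq2 called 0 in both contrasts. Of all 14560 genes 2211 and 1693 were under that p, and DESeq2 called 343 and 82. At 24 h 0 of 9 passed for TLR7 against OVA (0.22% of all genes) and 0 of 9 for TLR7 against TLR2 (1.24%), with 1 at an unadjusted p under 0.05 and 0 by DESeq2 in each. There 1471 and 3095 of all genes were under that p, and DESeq2 called 243 and 1015. At 72 h 4 passed for TLR7 against OVA (3.62% of all genes), namely Ighm, Ighd, Igha and Jchain, and 7 for TLR7 against TLR2 (4.8%), namely these and Iglc2, Ighg1 and Ighg2b. All 7 calls against TLR2 were lost without TLR2 72 h replicate 1 alone and without TLR7 72 h replicate 1, 2 or 4 alone. Over all genes those refits called 1 without TLR2 72 h replicate 1, and 1, 0 and 0 without the TLR7 replicates, against 699 with all libraries. Without the shallow libraries all 7 calls were lost too, and 0 of all genes were called. All but the call of Ighd were lost without TLR2 72 h replicate 3 or 4, where 70 and 103 of all genes were called. Without the middle libraries the differences of Iglc2, Ighg2b and Igha from the 1 remaining TLR2 library were 6.03 (SE 3.15), 3.37 (SE 3.86) and 1.62, with the sign turned. That of Ighg1 was 0.00, with 0 counts on both sides. Those of Ighm, Ighd and Jchain stayed negative. Against OVA, the calls of Igha and Jchain were lost without any 1 TLR7 72 h library, that of Jchain also without OVA 72 h replicate 4, and that of Ighd without TLR7 72 h replicate 1 or 4. Over all genes 100, 133, 545 and 92 were called without TLR7 72 h replicates 1 to 4, against 527 with all libraries. Without OVA 72 h replicate 4 it was 214.

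Over time 2 members passed with OVA (18.6% of all genes), Ighd and Iglc2, and all 9 with TLR7 (43.2%). All 9 TLR7 calls were lost without the shallow libraries, where 5 of all genes were called, against 6288 with all libraries. Both OVA calls were lost without any one of OVA 24 h replicates 2 and 4 and OVA 72 h replicates 1, 2 and 3. Over all genes those refits called 1, 0, 118, 0 and 3, in that order, against 2709 with all libraries. With TLR2 0 of 9 passed (39%), where 1 had an unadjusted p under 0.05 and DESeq2 called 0. Of all genes 7353 were under that p there, and DESeq2 called 6389. Leaving out the middle libraries left 1 TLR2 library at 72 h. The log2 changes with TLR2 were then -6.62 for Igkc, -9.22 for Igha and -7.12 for Jchain. With all libraries they were -1.39, -0.92 and -1.45. For the difference between the 72 h and the 24 h effect, 0 of 9 passed for TLR2 (0% of all genes) and 0 of 9 for TLR7 (0.81%). At an unadjusted p under 0.05 there were 0 and 5 members, and 919 and 2323 of all 14560 genes. DESeq2 was not run for these differences. Single libraries decided several of these values. Without OVA 72 h replicate 3, Igha differed by -5.10 (SE 1.57) between TLR7 and OVA at 72 h and by -2.59 (SE 1.23) between 72 h and 24 h of OVA, against -7.32 (SE 1.74) and -0.38 (SE 1.16) with it, and neither Igha nor Jchain passed against OVA. Without the middle libraries Igkc was higher, by 2.15 (SE 1.66), with TLR7 than in the 1 remaining TLR2 library at 72 h, against -3.13 (SE 1.01) with them.

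**Figure D4:**
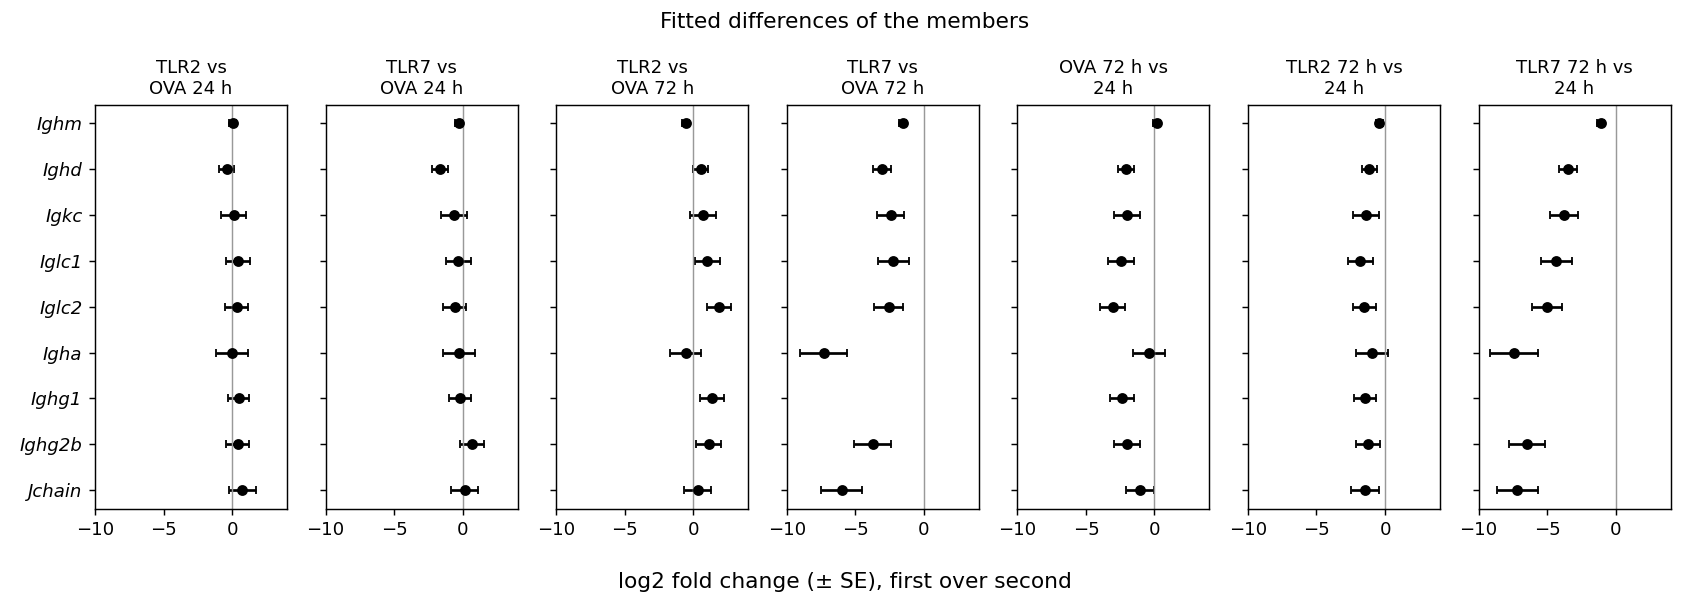
Each panel plots the fitted log2 fold change of the members for one contrast, first group over second, with bars of 1 SE. Ighm lies nearest to 0 of the members shown for TLR7 at 72 h against OVA (-1.55) and against 24 h (-1.10); Ighg1 is left out of those 2 panels because its TLR7 72 h libraries had 0 counts.

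Markers of B cells were set beside the members to see which of them moved alike. In the 7 libraries under 15 CPM for Igkc, Ms4a1, which encodes CD20, stood at 0 to 0.168 CPM and Pax5, the factor that holds B cell identity, at 0.0379 to 0.38 CPM. In the other 17 libraries they stood at 1.51 to 49.4 and 1.64 to 32.5 CPM. Other genes of the B cell list were less low in the same 7 libraries. Cd79b, a chain of the surface IgM complex, stood there at 2.99 to 5.03 CPM (4.1 to 42.7 in the other 17), Ebf1, an early B cell factor, at 0.76 to 3.18 CPM (0.797 to 9.29) and Tnfrsf13c, the receptor for the survival factor BAFF, at 0.854 to 5.96 CPM (1.97 to 12.5), so these 3 overlapped the rest. Ighm levels of 127 to 583 CPM thus occurred in libraries where Ms4a1 and Pax5, but not all B cell genes, were at or near 0. In bulk RNA, fewer cells of a type and less RNA per cell cannot be told apart.

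All 22 genes of the B cell list were tested. From 24 h to 72 h with TLR7, 11 fell and 3 rose, where 43.2% of all genes were called, with a median log2 change of -2.16 over the list and -0.01 over all genes. By edgeR's quasi-likelihood test Ms4a1 fell, with a log2 change of -7.21 (SE 1.71, adjusted p = 0.00338). Pou2af1, a co-activator of immunoglobulin promoters, fell too, with a change of -6.53 (SE 1.23, adjusted p = 0.000994 by edgeR). The changes of Pax5 and of Bank1, a B cell signalling scaffold, were -6.07 (SE 1.11, adjusted p = 0.000893) and -5.88 (SE 1.15, adjusted p = 0.00125) by edgeR. The 3 that rose were Fcmr, the receptor for the IgM constant part, Vpreb3 and Tnfrsf13b. The Vpreb3 call was lost without TLR7 24 h replicate 1 or 2 or TLR7 72 h replicate 3 or 4. Leaving out any 1 library of the contrast left 10 to 14 of the 22 called, and leaving out the 5 shallow libraries, which leaves 2 TLR7 libraries at 72 h, left 0 and ended each other call named here for TLR7 over time. Over all genes 5 were called without the shallow libraries, against 6288 with them.

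The summed level of the B cell list was 207 to 452 CPM in OVA 24 h, 250 to 317 in TLR2 24 h, 97.9 to 144 in TLR7 24 h, 68.3 to 185 in OVA 72 h, 72.7 to 220 in TLR2 72 h and 68.5 to 82.1 CPM in TLR7 72 h. Tnfrsf13b, which encodes the receptor TACI, stood at 25.2 to 31 CPM, Ralgps2 at 12.3 to 15.8 CPM, Cd72 at 6.79 to 9.78 CPM and H2-Ob at 6.22 to 7.67 CPM in the TLR7 72 h libraries, where Ms4a1 was at most 0.0448 CPM. The summed level and the level of Ms4a1 thus differed in pattern.

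Between agents the B cell list gave fewer and less stable calls than from 24 h to 72 h with TLR7, as did all genes. For TLR7 against OVA at 72 h 4 of 22 fell and 0 rose (3.62% of all genes called), and DESeq2 called 14. The edgeR counts were 12 and 7 without OVA 72 h replicate 1 and 2, 2 without replicate 3, and 1 without replicate 4 or any 1 TLR7 72 h library. Over all genes they were 1370, 308, 278 and 214 without OVA 72 h replicates 1 to 4, against 527 with all libraries. Without TLR7 72 h replicates 1 to 4 they were 100, 133, 545 and 92. The 4 list genes called with all libraries were Ms4a1, Pou2af1, Bank1 and Tnfrsf13c. Tnfrsf13c fell by 2.23 on the log2 scale (SE 0.40, adjusted p = 0.0053 by edgeR) and kept its call in 16 of 17 other settings, all but the one without the shallow libraries. Ms4a1 fell by 6.79 (SE 1.73, adjusted p = 0.0312 by edgeR) and lost its call without OVA 72 h replicate 3 or 4, or without any 1 TLR7 72 h library. For TLR7 against TLR2 at 72 h 9 of 22 fell (4.8% of all genes called), and the count depended on single libraries. It was 0 without TLR2 72 h replicate 1 or TLR7 72 h replicate 1, 2 or 4, 4 without TLR2 72 h replicate 3, and 14 without TLR2 72 h replicate 2. Over all genes the count was 1 without TLR2 72 h replicate 1, and 1, 0 and 0 without TLR7 72 h replicates 1, 2 and 4. It was 70 without TLR2 72 h replicate 3 and 1667 without replicate 2, against 699 with all libraries.

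At 24 h, for TLR7 against OVA, 3 of 22 fell (0.22% of all genes called), and all 3 encode surface receptors or parts of them. Fcer2a, the low-affinity IgE receptor CD23, had a log2 difference of -6.65 (SE 1.38, adjusted p = 0.0461), Fcmr one of -4.46 (SE 0.74, adjusted p = 0.0283) and Cd79b one of -2.39 (SE 0.43, adjusted p = 0.0283), by edgeR. This count was 0 without OVA 24 h replicate 2 or 4 or TLR7 24 h replicate 1 or 2, and 8 by DESeq2. Over all genes it was 0 in each of those refits and 243 by DESeq2, against 32 with all libraries. The Fcer2a call was also lost without OVA 24 h replicate 1 or 3 or TLR7 24 h replicate 4. There 6, 3 and 31 of all genes were called. For TLR2 against OVA edgeR called 0 of 22 at either time, with 3 and 4 at an unadjusted p under 0.05 and 0 and 1 by DESeq2. Of all 14560 genes 2211 and 1693 were under that p, and DESeq2 called 343 and 82. Without OVA 72 h replicate 4 edgeR called 3 of the list and 555 of all genes at 72 h. From 24 h to 72 h with OVA, 11 of 22 fell and 0 rose (18.6% of all genes called). That count came to 0 without OVA 24 h replicate 2 or 4 or OVA 72 h replicate 2 or 3, to 1 without OVA 72 h replicate 1 and to 19 without the middle libraries. Over all genes the count was 0 to 118 without those single libraries and 7673 without the middle ones, against 2709. With TLR2 and all libraries kept, 3 fell and 1 rose, a smaller share of the 22 than the 39% of all genes called. The median log2 change over the list was -1.25 there, with 19 of 22 negative, against -0.01 over all genes. No share is given without the middle libraries, where 1 TLR2 library remains at 72 h. With TLR2 7 of the 22 were called without TLR2 72 h replicate 1, where 4350 of all genes were called, against 5681 with all libraries. The list count was 2 without TLR2 24 h replicate 1 or 4 or TLR2 72 h replicate 4 (3429, 3370 and 5069 of all genes). It was 1 without TLR2 24 h replicate 2 (3922 of all genes) and 0 without TLR2 72 h replicate 2 (1371).

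Fcmr, the IgM receptor, had an order of its own. Its levels were 8.22 to 17.9 CPM with OVA at 24 h, 1.01 to 9.37 with TLR2 and 0.0879 to 1.03 with TLR7. At 72 h they were 1.06 to 4.97, 1.54 to 8.74 and 5.99 to 7.98 CPM. The TLR7 libraries were thus all below the OVA libraries at 24 h and all above them at 72 h, and they overlapped the TLR2 libraries at both times. From 24 h to 72 h with TLR7 Fcmr rose by 3.45 on the log2 scale (SE 0.72, adjusted p = 0.00166 by edgeR).

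Plasma cells are the antibody-secreting end stage of B cells. Tnfrsf17, which encodes the plasma cell receptor BCMA, was at most 0.182 CPM in any library and at 0 in all 7 libraries low in Igkc, and it was too rare to test. Of the 11 tested genes of the plasma cell list, 1 fell for TLR7 against OVA at 72 h (3.62% of all genes called), with a list median of 0.16. That gene was Sdc1, which encodes syndecan-1 (CD138). It stood at 6.56 to 10.9 CPM with OVA, 2.67 to 4.66 with TLR2 and 0.413 to 3.14 with TLR7 at 72 h, and fell by 2.59 (SE 0.49, adjusted p = 0.00632 by edgeR) on the log2 scale. Sdc1 stood at 0.413 to 10.9 CPM in the 7 libraries low in Igkc and at 2 to 8.65 CPM in the other 17, so its highest value was in a library with almost no Jchain. From 24 h to 72 h with TLR7 1 rose and 3 fell, a smaller share of the 11 than the 43.2% of all genes called: Xbp1 rose by 1.01 (SE 0.27, adjusted p = 0.00665), and Mzb1, Sdc1 and Irf4 fell, Irf4 by 1.43 (SE 0.29, adjusted p = 0.00142), by edgeR. The Sdc1 call over time was lost without TLR7 24 h replicate 3 or TLR7 72 h replicate 1 or 2. Irf4, Xbp1 and Prdm1 are also used by activated T cells. The summed level of the list was 457 to 1911 CPM over all libraries, and that of Irf4 alone 181 to 1580 CPM.

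Other constant genes were low in the same libraries. Of the 6 on the list, Ighg2a was not matched by symbol, Ighe and Iglc4 were too rare to test, and 3 were tested. All 3 fell from 24 h to 72 h with TLR7 (43.2% of all genes called): Iglc3 by 6.23 (SE 1.32, adjusted p = 0.0018), Ighg2c by 5.87 (SE 1.29, adjusted p = 0.00219) and Ighg3 by 4.72 (SE 1.06, adjusted p = 0.00252) on the log2 scale by edgeR. They kept their calls in every other setting run except without the shallow libraries. Iglc3 stood at 4.71 to 10.2 CPM with TLR7 at 24 h and at 0 to 0.19 CPM at 72 h. It also fell from 24 h to 72 h with OVA, by 3.28 (SE 0.96, adjusted p = 0.0341 by edgeR), a call lost without OVA 24 h replicate 2 or 4 or OVA 72 h replicate 1, 2 or 3. Those refits called 0 to 118 of all genes, against 2709 with all libraries.

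The subunits of the enzyme that rearranges antibody genes were at or near 0. Rag2, a subunit of the V(D)J recombinase, had 0 counts in all 24 libraries, and Rag1, the other subunit, was at most 0.0909 CPM. Of the 11 genes of the list on rearrangement and switching 5 were tested. With TLR7 from 24 h to 72 h 2 of the 5 fell, a share near the 43.2% of all genes called: Ung by 2.27 (SE 0.61, adjusted p = 0.00675) and Apex1 by 1.24 (SE 0.36, adjusted p = 0.0111) by edgeR; both encode DNA repair enzymes used in many cell types. With TLR2 1 rose and 3 fell over time (39% of all genes called), the one that rose being Dntt, the enzyme that adds bases at V(D)J joins, by 4.47 (SE 1.18, adjusted p = 0.0109 by edgeR), from at most 0.163 CPM to 1.63 to 4.36 CPM.

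The factors that act on the immunoglobulin loci were all expressed at testable levels, 17 of 17. From 24 h to 72 h with TLR7 10 fell and 2 rose (43.2% of all genes called), with a list median of -0.99. The largest falls were in the B cell factors Pou2af1 and Pax5 given with the B cell list, in Spib, by 3.43 (SE 1.12, adjusted p = 0.0196), and in Bcl6, by 2.68 (SE 0.53, adjusted p = 0.00133), by edgeR. The Spib call was lost without TLR7 24 h replicate 2. For TLR7 against OVA at 72 h 5 fell and 0 rose (3.62% of all genes called), among them Pou2f2, which encodes the octamer factor Oct-2, by 1.14 (SE 0.27, adjusted p = 0.0204 by edgeR). Its call was lost without OVA 72 h replicate 4 or TLR7 72 h replicate 1, 2 or 4, and without the middle libraries. Among receptors and carriers of immunoglobulin 7 of 11 genes were tested. From 24 h to 72 h with TLR7 1 rose, Fcmr, and 2 fell, a share of the 7 near the 43.2% of all genes called, among them Fcgr2b, the inhibitory IgG receptor, by 4.15 (SE 0.92, adjusted p = 0.00233 by edgeR).

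Likeness over the libraries is given as a description, without a p, since the 24 libraries share clusters of time and the middle set. On log2 CPM, Ighm and Igkc had a Pearson r of 0.45 (Spearman's rho 0.50), and 0.24 after each group's mean was taken out. Igkc with Iglc1 had an r of 0.98 (rho 0.96) and with Jchain 0.92 (rho 0.92). After taking out group means these were 0.96 and 0.91. Ighm with Jchain had an r of 0.66 (rho 0.47), and 0.40 within groups. Ighd lay between, with an r of 0.78 to Ighm and 0.82 to Igkc.

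The genes most like each were taken from 9679 genes with a mean of at least 5 CPM. For Ighm they were Pkp4, with an r of 0.96 (rho 0.93, within groups 0.89), Prpf6, Pde6d, Slamf6, Sept6, Ttc7b, Tbc1d30 and Tbc1d4, the others having an r of 0.92 to 0.95. Slamf6, a receptor on T and other lymphoid cells, stood at 31 to 90.8 CPM with OVA at 72 h, at 30.1 to 47.6 with TLR2 and at 13.4 to 26.2 with TLR7, an r of 0.94 to Ighm. For Igkc the genes most like it included Syk, the kinase of the B cell receptor, with an r of 0.96 (rho 0.98, within groups 0.96), Cybb, Fos, Iglc3, Exosc4, Ctdp1 and Bend3, at 0.94 to 0.96. The 2 sets share no gene. Of the B cell list Tnfrsf13c was most like Ighm (r = 0.89, rho 0.88), with an r of 0.55 to Igkc. Sdc1 had an r of 0.90 to Ighm and 0.14 to Igkc, and Cd8a 0.72 and 0.31.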

How the data were processed

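The authors deposited expected counts per gene for each library, made with STAR and RSEM on GRCm38 per the submitters' processing notes, which also name edgeR; 28.7% of the values above 0 were not whole (tolerance 1e-06), and all were rounded. The libraries came from a stranded poly-A kit, per the labels' protocols; no source used here gives the strand setting or the annotation. Totals were 10.5M to 27.1M counts.

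Genes were kept with a minimum count of 10 and a total of 15 (14560 genes) and fitted with edgeR 4.0.16 (R 4.3.3, TMM scaling, quasi-likelihood test, 6 groups together, 18 residual degrees of freedom, Benjamini-Hochberg threshold 0.05), checked on simulated data. The biological coefficient of variation was 0.321. DESeq2 1.42.0 was an alternative, beside other scalings and filters, a replicate block, only the groups compared, and leaving out each library, the 8 middle or the 5 shallow ones. Positions, exon lengths and sequences came from GENCODE M21.

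The members and gene lists were chosen with earlier results of these data known. Named genes are the members, 7 fixed markers, up to 4 genes per list and contrast with the largest change past the threshold, and the 8 genes most like Ighm and Igkc (log2 CPM, prior count 2); genes outside this rule were chosen after their values were seen, among them the levels of Tnfrsf13b, Ralgps2, Cd72, H2-Ob, Rag1 and Rag2. Some genes under the rule are not reported here.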

Additional observations from a re-analysis of the deposited data

Results flagged for a closer look

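Within groups of 4 libraries, Dixon's criterion was applied to 60 sets of values, of which chance alone would mark about 1 in 20, and it marked 4. Igkc in TLR2 72 h replicate 2 was 1.68 CPM against 79.8 to 89.9 CPM in the other 3 libraries of the group, all of them middle libraries. The log2 ratio of Ighm to Igkc in the same library was 7.35. Iglc1 in TLR2 24 h replicate 2 was 16.2 CPM, above 8.31 to 9.23 CPM in the others, and Ighg1 in OVA 24 h replicate 2 was 3.59 CPM, above 0.669 to 1.07 CPM in the others.

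The effect of the TLR7 agent on Fcmr differed between the times. The log2 difference from OVA was higher at 72 h than at 24 h by 5.42 (SE 0.96, adjusted p = 0.0171 by edgeR's interaction term). It was called in 6 of 7 other settings, all but the one without the shallow libraries, and ranged from 5.03 to 7.78.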

How the results depend on the processing

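The log2 difference of Ighm kept its size within 1 SD between replicates in every setting run except without the 8 middle libraries. There it was -0.97 for TLR2 against OVA at 72 h, -0.53 for TLR7 against TLR2 at 72 h and -0.82 for TLR2 from 24 h to 72 h, with 1 TLR2 library at 72 h that is assumed to vary like the other groups. Ighm passed the threshold in 15 of 17 settings for TLR7 against OVA at 72 h, in 16 of 17 for TLR7 over time, and in 9 of 17 for TLR7 against TLR2 at 72 h. The last call was lost without TLR2 72 h replicate 1, 3 or 4, TLR7 72 h replicate 1, 2 or 4, the middle libraries or the shallow ones.

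The log2 ratio of Ighm to Igkc, without the middle libraries, was 0.16 for TLR2 against OVA and -0.18 for TLR7 against TLR2 at 24 h, 0.98 and -2.69 for the same contrasts at 72 h, and 5.81 for TLR2 over time. With the summed B cell list in place of Igkc it was 0.17 for TLR2 against OVA at 24 h and -0.44 for TLR7 over time; the cause was not tested.

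Counts over all genes moved by more than 1.5 times under several settings. Without the middle libraries 7673 genes were called for OVA over time (2709 with them), 398 for TLR7 against OVA at 24 h (32 with them), 258 at 72 h (527 with them) and 0 for TLR7 against TLR2 at 72 h (699 with them). Without the shallow libraries 5 genes were called for TLR7 over time (6288 with them), 2847 for TLR2 over time (5681 with them), and 0 for OVA over time and in each contrast between agents. DESeq2 called 343 genes for TLR2 against OVA at 24 h and 82 at 72 h, where edgeR called 0. For TLR7 against TLR2 at 72 h, the single-library refits that lost the Ighm call gave 0 to 103 genes, against 699 with all libraries. On the B cell list, for TLR7 against TLR2 at 24 h, 2 genes were called, 0 to 1 with single libraries left out, 11 with only the groups compared and 8 by DESeq2. Over all genes these counts were 180, 0 to 629, 405 and 1015.

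Same-numbered replicates did not deviate together in all pairs of any contrast: at most 3 of 4 pairs had a correlation over 0.1. For TLR7 against OVA at 24 h the correlations ran from -0.62 to 0.52. Such a count over 4 pairs cannot show that pairing is absent. With the replicate number as a block, the log2 difference of Ighm was -1.57 for TLR7 against OVA at 72 h, -1.03 for TLR7 against TLR2 at 72 h and -1.11 for TLR7 over time, and the B cell list gave 1 call for TLR7 against OVA at 72 h in place of 4 and 0 for TLR7 against TLR2 at 24 h in place of 2. Over all genes 15 were called for TLR7 against OVA at 24 h in place of 32, and no call of Ighm changed. The block ended the calls of Igha and Jchain for TLR7 against OVA at 72 h, of Ighg2b for TLR7 against TLR2 at 72 h and of Fcer2a for TLR7 against OVA at 24 h, among others.

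Depth limits the rare transcripts most: Ighg1, Ighg2b, Igha and Jchain had 0 to 8 counts per library in TLR7 at 72 h, so differences among those libraries were not detectable at this depth.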
